A study of Mus musculus with 2 samples.

Results

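Mir138-1, Mir138-2, Mir128-1 and Mir128-2 are the mouse genes for the microRNAs miR-138 and miR-128. Each microRNA is encoded at a pair of loci that share its main sequence but differ elsewhere. The genes were found by matching stable Ensembl identifiers in the count tables to GENCODE M21 symbols. All 4 were among the 1973 listed microRNA genes. The tables come from small RNA of hearts of B6NCrl mouse embryos at embryonic day 10.5, in a single untreated group of 2 libraries labelled as biological replicates. Replicate 1 was a pool of 69 embryos and replicate 2 a pool of 51, each of mixed sex, so differences between the libraries hold pool and preparation together. The labels give no other genotype, treatment or age, so the comparisons are between loci within a library and between the 2 libraries.

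A microRNA gene is transcribed as a hairpin, which is cut to a duplex of a 5p and a 3p arm, and 1 arm usually becomes the main product that guides silencing through its seed (bases 2 to 8). miR-138 and miR-128 are known chiefly from the brain. miR-138-5p limits the size of dendritic spines in neurons, and in zebrafish it is needed for patterning of the heart chambers. miR-128-3p restrains neuronal excitability. Because the main arm of each is the same at both loci, a read of that arm alone cannot show which locus made it.

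The mature sequences show which parts of a read can tell the loci of a pair apart. The 6 mature arms annotated at these loci by RefSeq (GRCm38.p6) follow, 5′ to 3′, with the seed in capitals.
miR-138-5p, from both Mir138 loci: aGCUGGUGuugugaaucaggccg
miR-138-1-3p, from Mir138-1: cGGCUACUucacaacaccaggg
miR-138-2-3p, from Mir138-2: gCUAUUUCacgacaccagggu
miR-128-3p, from both Mir128 loci: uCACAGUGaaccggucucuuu
miR-128-1-5p, from Mir128-1: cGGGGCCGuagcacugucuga
miR-128-2-5p, from Mir128-2: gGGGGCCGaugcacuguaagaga

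The minor arms differ between the loci. Aligned with each other, miR-138-1-3p and miR-138-2-3p had 18 identical bases and 2 substitutions, C7U and A13G, counted from 1 at the 5′ end of miR-138-1-3p with its base first. The annotated 5′ ends are also offset, with base 3 of miR-138-1-3p aligned to base 1 of miR-138-2-3p, so these arms have different seeds. miR-128-1-5p and miR-128-2-5p were aligned over bases 2 to 21 of each. There they had 16 identical bases and 4 substitutions, U9A, A10U, C18A and U19A, counted from the 5′ end of miR-128-1-5p. Base 1, outside the aligned part, also differs, being c in miR-128-1-5p and g in miR-128-2-5p. These 2 arms have the same seed. Among 1679 mature sequences in the RefSeq table, no differently named one shared the seed of miR-138-5p or of miR-128-3p. The seed letters of miR-128-3p lie 1 base later, at bases 3 to 9, in miR-27a-3p and miR-27b-3p, shown here with those bases in capitals. Other shifts of the seed and seeds with a mismatch were not searched.
miR-27a-3p: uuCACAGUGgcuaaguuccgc
miR-27b-3p: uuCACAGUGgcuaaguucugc

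The hairpins show where the unbroken shared stretch of each pair lies. Aligned end to end, the Mir138 hairpins have 54 identical bases, 17 mismatches and 28 gaps. The Mir128 hairpins have 55 identical bases, 14 mismatches and 8 gaps. Some identical bases thus lie outside the main arm, among mismatches and gaps. They are printed in the 5′ to 3′ direction of the RNA, with the arm that is identical in the partner in capitals.
Mir138-1: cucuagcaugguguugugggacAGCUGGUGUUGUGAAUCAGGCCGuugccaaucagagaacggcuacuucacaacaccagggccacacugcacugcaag
Mir138-2: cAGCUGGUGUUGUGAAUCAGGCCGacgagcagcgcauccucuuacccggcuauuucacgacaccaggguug
Mir128-1: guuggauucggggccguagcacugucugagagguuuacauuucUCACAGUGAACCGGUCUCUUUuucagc
Mir128-2: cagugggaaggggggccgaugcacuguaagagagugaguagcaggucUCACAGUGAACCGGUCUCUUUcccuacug

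The Mir138 hairpins share an unbroken stretch of 24 bases, which is miR-138-5p and 1 base before it. The Mir128 hairpins share 23 bases, which are miR-128-3p and the 2 bases before it. Of all windows of 20 bases, 5 of 80 in Mir138-1 and 5 of 52 in Mir138-2 also occur in the partner, and 4 of 51 in Mir128-1 and 4 of 57 in Mir128-2. None of the 4 hairpins shared a window of 20 bases with any RefSeq hairpin other than its partner, among 1005. The tables placed reads mapped to several places in a row of their own (23.3% and 23.5% of all reads in replicates 1 and 2) and not to genes. Reads lying wholly within a shared stretch map to both loci, so the counts of the 4 genes are lower limits, and they measure reads that could be told apart, not miR-138-5p or miR-128-3p as a whole. How many reads of the main arms are in that row is unknown, and whether other places in the genome share these windows was not tested.

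**Figure D1:**
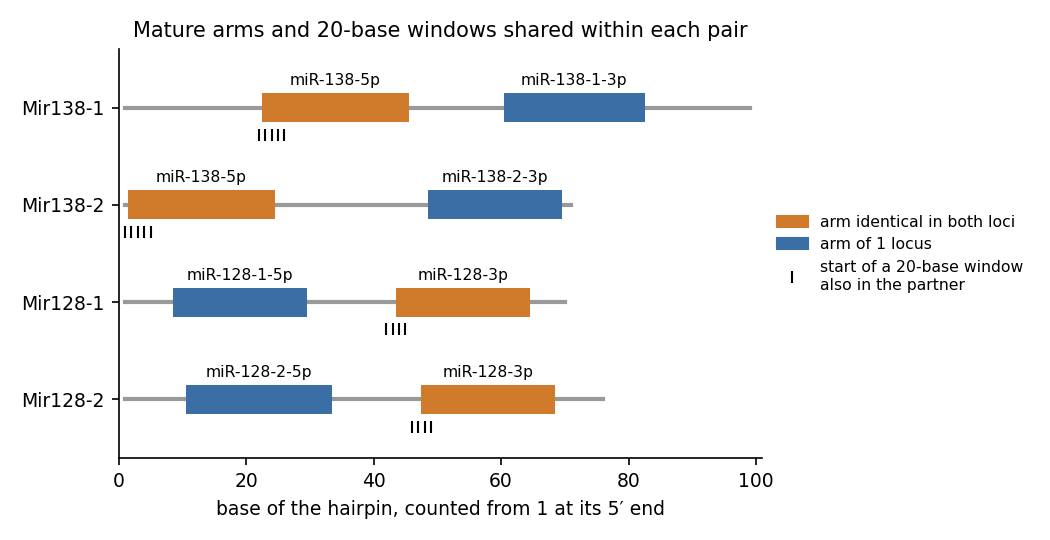
Map of the 4 hairpins, with bases counted from 1 at the 5′ end on the x axis. Orange blocks are arms identical in both loci of a pair, blue blocks are arms of 1 locus, and black ticks mark starts of 20-base windows also found in the partner (5 in each Mir138 and 4 in each Mir128 hairpin), all of them at the identical arm.

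The loci lie in different settings of the genome (mm10 coordinates, GENCODE M21). Mir138-1 (ENSMUSG00000065414.1) is on the plus strand at chr9:122682876-122682974, within an exon of Gm47135, annotated as a transcribed pseudogene. Mir138-2 (ENSMUSG00000065512.2) is on the plus strand at chr8:94324311-94324381, within an exon of the long noncoding RNA gene C78859. Mir128-1 (ENSMUSG00000065520.1) is on the plus strand at chr1:128202361-128202430, in an intron of R3hdm1. Mir128-2 (ENSMUSG00000065441.1) is on the minus strand at chr9:112118636-112118711, in an intron of Arpp21, which encodes a cAMP-regulated phosphoprotein known from neurons. Each overlapping gene lies on the same strand as its microRNA, and the nearest other annotated microRNA gene was 180665 bases away or more.

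Own-strand gene counts summed to 4163656 in replicate 1 and 4789068 in replicate 2, and 424 genes had at least 10 counts in at least 1 library. The tissue label was checked against striated muscle microRNAs. Mir208a, which lies in a heart myosin gene, had 12836 and 17434 CPM (own-strand counts scaled to 1000000 gene counts in each library) in replicates 1 and 2, Mir208b had 21037 and 49967, and Mir499 had 868 and 1646. Mir1a-1, Mir133a-1 and Mir133a-2, whose copies elsewhere also share their main arm, had at most 4.08 CPM. The 6 muscle genes found in the tables summed to 34745 and 69054 CPM.

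All 4 genes were counted in both libraries at low to moderate levels, with Mir138-2 highest and Mir128-2 lowest in each. Mir138-2 had 564 own-strand counts in replicate 1 and 644 in replicate 2, which is 135.5 and 134.5 CPM. Its mean was 135 ± 0.696 CPM (SD, n = 2), and the libraries were nearly equal on this scale. Mir128-1 had 339 and 422 counts, or 81.4 and 88.1 CPM, with a mean of 84.8 ± 4.74 CPM (SD, n = 2). The exact 95% Poisson intervals of its CPM, 73.0 to 90.6 and 79.9 to 96.9, overlapped. Mir138-1 had 354 and 248 counts, or 85.0 and 51.8 CPM, with a mean of 68.4 ± 23.5 CPM (SD, n = 2). This was the gene of the 4 with the widest spread. Its intervals, 76.4 to 94.4 and 45.5 to 58.6 CPM, did not overlap. Mir128-2 had 63 and 76 counts, or 15.1 and 15.9 CPM, with a mean of 15.5 ± 0.522 CPM (SD, n = 2). Its intervals, 11.6 to 19.4 and 12.5 to 19.9 CPM, overlapped. The tables give reads and no molecular identifiers, so repeated reads may come from 1 molecule, and these intervals cover counting error only.

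**Figure D2:**
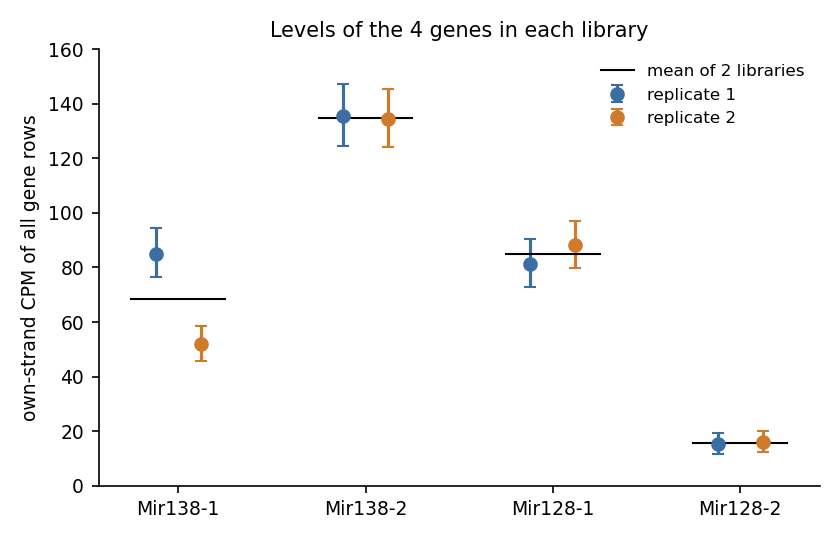
Own-strand CPM of the 4 genes (y axis, from 0) in replicate 1 (blue) and replicate 2 (orange), with exact 95% Poisson intervals as bars and the mean of the 2 libraries as a black line. Mir138-1 is the gene whose intervals do not overlap, at 85.0 and 51.8 CPM.

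The middle of the order depended on the library. In CPM, Mir138-1 and Mir128-1 had overlapping intervals in replicate 1, while Mir128-1 was higher in replicate 2, where the intervals did not overlap. Per 100 bases of hairpin, Mir128-1 was above Mir138-1 in each library, at 116 and 126 CPM against 85.9 and 52.3. This scale takes the whole annotated hairpin, and where in it the reads lay is unknown, so it does not settle the order. Mir138-2 had 191 and 189 CPM per 100 bases and Mir128-2 had 19.9 and 20.9. Among all listed genes the ranks by own-strand counts in replicates 1 and 2 were 193 and 182 for Mir138-2, 220 and 204 for Mir128-1, 218 and 227 for Mir138-1, and 294 and 280 for Mir128-2. None of the 4 had a count on the opposite strand in either library, which allows up to 3 counts, or 0.721 and 0.626 CPM.

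Within each pair 1 locus held more of the counts in both libraries. At Mir138 the larger locus was Mir138-2, with 61.4% of the pair's counts in replicate 1 (exact 95% Clopper-Pearson interval 58.2 to 64.6) and 72.2% in replicate 2 (69.1 to 75.1). Its counts exceeded those of Mir138-1 1.59-fold (1.39 to 1.82) and 2.60-fold (2.24 to 3.02). At Mir128 the larger locus was Mir128-1, with 84.3% in replicate 1 (80.4 to 87.7) and 84.7% in replicate 2 (81.3 to 87.8). Its counts exceeded those of Mir128-2 5.38-fold (4.10 to 7.16) and 5.55-fold (4.34 to 7.19). None of these 4 intervals held 50%. Per base of hairpin the ratios were 2.22 and 3.62 for Mir138-2 over Mir138-1 and 5.84 and 6.03 for Mir128-1 over Mir128-2. With 2 libraries an exact sign-flip test cannot give a two-sided p below 0.5, so the ratios were not tested against equality over samples.

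The balance of the Mir138 loci differed between the libraries, and no such difference was detected for the Mir128 loci. The share of Mir138-2 was 10.8 percentage points higher in replicate 2 (Fisher's exact test, two-sided, adjusted p = 7.3e-06 over 23 pairs). On the log2 scale the ratio of Mir138-2 to Mir138-1 was higher by 0.70 in replicate 2 (exact 95% interval 0.41 to 1.00). The share of Mir128-1 was 0.411 points higher in replicate 2 (Fisher's exact test, adjusted p = 0.97), and its log2 ratio to Mir128-2 differed by 0.045, with an interval from -0.51 to 0.59. Whether the Mir138 and Mir128 differences differ from each other was not tested. A ratio of loci within a library needs no scaling between libraries, so these values hold under any of the scalings used. They compare 2 libraries, not conditions.

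The same measure was taken over every pair of listed genes whose symbols end in -1 and -2, of which 23 of 42 had at least 10 counts per pair in both libraries. A difference of share between the libraries passed Fisher's exact test for 8 of the 23 pairs (34.8%), Mir138 among them. By the size of its log2 change the Mir138 pair was in place 9 of 23, and the median size was 0.57. The Mir128 pair was last, in place 23. The larger locus was chosen from these counts, so its share is a description. That share averaged 66.8% ± 7.61 for Mir138-2 and 84.5% ± 0.290 for Mir128-1 (SD, n = 2), in places 19 and 10 of the 23, against a median of 80.0% over pairs. The 3 pairs with the most counts were Mir92, Mir16 and Mir181a. Mir92-1 held 95.2% and 96.3% of its pair, Mir16-1 held 79.1% and 80.1%, and Mir181a-1 held 78.8% and 81.2%. The same locus was larger in both libraries in 20 of the 23 pairs.

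**Figure D3:**
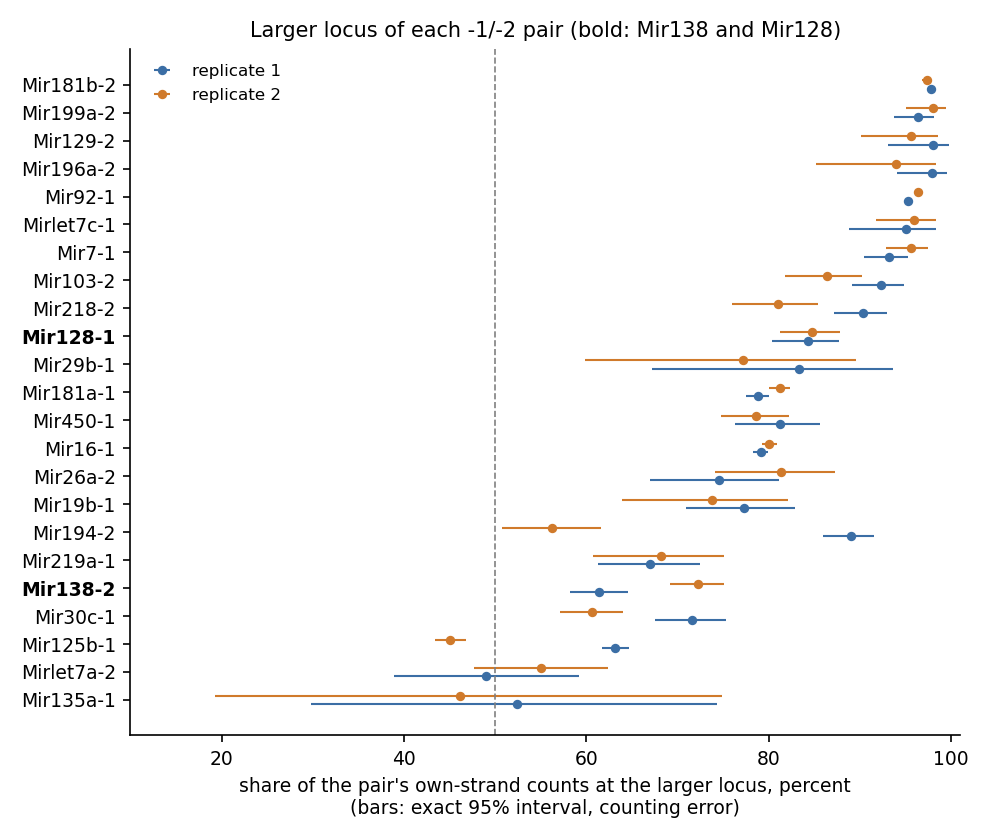
Share of a pair's own-strand counts at its larger locus (x axis, percent) for the 23 pairs, in replicate 1 (blue) and replicate 2 (orange), with exact 95% intervals as bars and a dashed line at 50%. Mir138-2 is at 61.4% and 72.2%, with intervals that do not overlap, and Mir128-1 at 84.3% and 84.7%.

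The larger locus was not the one with more sequence of its own in either pair. Mir138-2 has 47 windows of 20 bases found in no other RefSeq hairpin and Mir138-1 has 75, and Mir128-1 has 47 against 53 in Mir128-2. The windows are counted over the whole annotated hairpin, which has 71 bases for Mir138-2 and 99 for Mir138-1. They do not show where in the hairpin the reads lay, so they cannot show whether unique sequence sets the share. Over the 22 pairs with both hairpins in the RefSeq table, 21 of which share a mature sequence, the larger locus had more such windows in 11 pairs, fewer in 10 and the same number in 1. The longest shared stretch within a pair ran from 22 to 28 bases with a median of 24, near those of Mir138 (24) and Mir128 (23). The files give a count per hairpin and not per arm, so which arm or variant of an arm was counted at each locus was not tested.

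Each gene was also compared between the libraries, with an exact two-sided binomial test in which TMM (trimmed mean of M-values) set the library sizes, and with Benjamini-Hochberg adjustment over the 424 genes. The test asks only whether a difference exceeds counting error, and 61.6% of all genes passed it, so the 3 of 4 that passed here are near that background. Mir138-1 was lower in replicate 2, with a log2 ratio of -0.44 (exact 95% interval -0.68 to -0.20, adjusted p = 0.00050). Mir138-2 was higher at 0.26 (0.10 to 0.43, adjusted p = 0.0030, exact test), and Mir128-1 was higher at 0.39 (0.18 to 0.60, adjusted p = 0.00045, exact test). Mir128-2 had a ratio of 0.34 (-0.16 to 0.85, adjusted p = 0.24, exact test), which did not pass. In size none was beyond the median gene, whose absolute log2 ratio was 0.47. The places of Mir138-1, Mir128-1, Mir128-2 and Mir138-2 by absolute ratio were 224, 245, 261 and 288 of 424.

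The calls that a gene was higher rest on the scaling. With total counts in place of TMM the median log2 ratio over the tested genes shifted down by 0.27, and Mir138-1 alone of the 4 passed, at -0.71 (adjusted p = 4.1e-09, exact test), against a background of 61.8%. Mir138-2 then had a ratio of -0.011 and Mir128-1 of 0.11, and neither passed. Mir138-1 was lower in replicate 2 under each scaling tried.

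**Figure D4:**
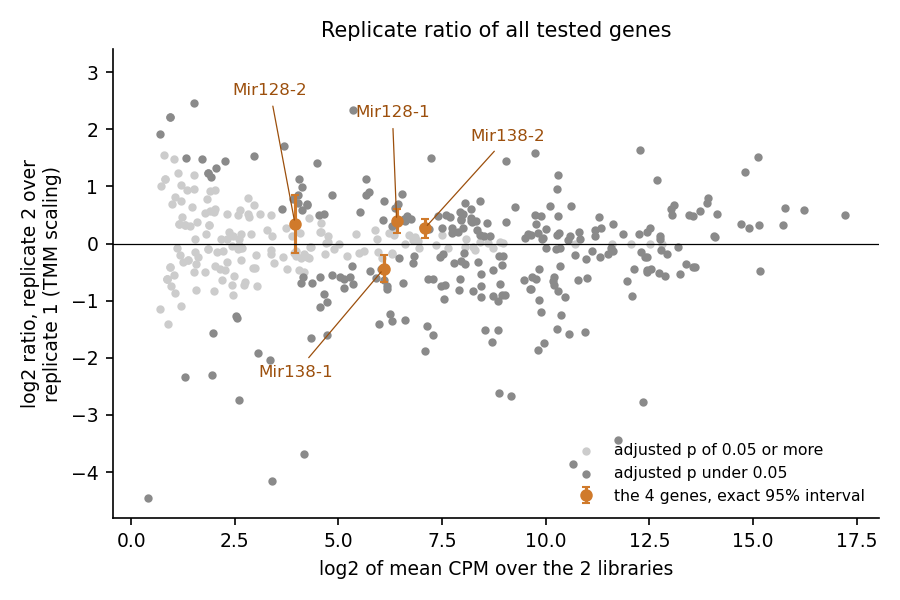
Log2 ratio of replicate 2 over replicate 1 with TMM scaling (y axis) against log2 of mean CPM (x axis) for the 424 tested genes, dark grey where the adjusted p was under 0.05. The 4 genes (orange, exact 95% intervals) lie between -0.44 and 0.39, within the spread of genes of like level.

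Of 21 neural microRNA genes listed, Mir138 and Mir128 included, 20 were found in the tables and 14 could be tested. With TMM 2 were higher in replicate 2, Mir138-2 and Mir128-1, 5 were lower and 7 did not pass, with a median log2 ratio of -0.26 against -0.011 over all tested genes. With total counts 0 were higher, 9 were lower and 5 did not pass, with a median of -0.53 against -0.29. Over all 424 genes the share higher was 30.4% and the share lower 31.1% with TMM, and 15.6% and 46.2% with total counts. The 5 lower genes were Mir138-1, Mir219a-1 at -0.62, Mir219a-2 at -0.70, Mir7-1 at -0.26 and Mir7b at -2.73, the last on 45 and 6 counts. Mir219a is known from oligodendrocytes, which make myelin, and Mir7 from neurons and endocrine cells. The genes that did not pass included Mir137 at -0.25, Mir153 at -0.50, Mir132 at -0.15, Mir212 at -0.088, Mir129-2 at 0.21 and Mir7-2 at -0.91.

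The 4 genes made up 48.4% and 56.5% of the neural list's counts in replicates 1 and 2. They summed to 317 and 290 CPM, and the rest of the list to 338 and 224 CPM. The highest of that rest was Mir7-1 with 104 and 72.0 CPM, followed by Mir132, an activity-induced microRNA of neurons, with 71.3 and 53.2 CPM. Mir124a-1, Mir124a-2 and Mir124a-3, the genes of the most abundant neuronal microRNA, and Mir9-2 had no count in either library, and Mir9-3 had 7 counts in each. As for Mir138 and Mir128, the Mir124a and Mir9 genes share their main arms, so a 0 there does not measure miR-124 or miR-9. The muscle genes summed 110-fold and 238-fold above the 4 genes, whose counts leave out reads lying wholly within the stretch shared by a pair. Beside the lower Mir138-1 of replicate 2, the summed CPM of the other neural genes was lower and that of the muscle genes higher there. With TMM, single genes of both lists went either way, with Mir129-2 at 0.21 and Mir1a-1 at -0.10, neither of which passed. With total counts, the scale of the sums, Mir129-2 was at -0.065 and Mir1a-1 at -0.38, and neither passed. Each tested neural gene outside the 4 then had a negative log2 ratio. Some markers of other tissues were also lower in replicate 2 and others were higher, and all are named here after their values were seen. Among the lower ones, Mir122 of liver had 3078 and 175 CPM and Mir10b of the Hox clusters 6321 and 482. Mir375 of endocrine cells had 1013 and 131, and Mir200c of epithelium 1602 and 396. Among the higher ones, Mir451a of red blood cells had 947 and 1509 CPM and Mir215 of gut 89.8 and 211. Other microRNA genes of these tissues did not all go that way. Of gut, Mir192 had 145.8 and 47.8 CPM and Mir194-2 112.6 and 39.7, both lower, while Mir194-1 had 13.9 and 30.9. Mir144 of red blood cells had 119.8 and 102.9 CPM and did not pass with TMM. The part of tissue make-up in the Mir138-1 value was not tested. In pooled tissue, fewer cells of a type and less RNA per cell cannot be told apart.

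**Figure D5:**
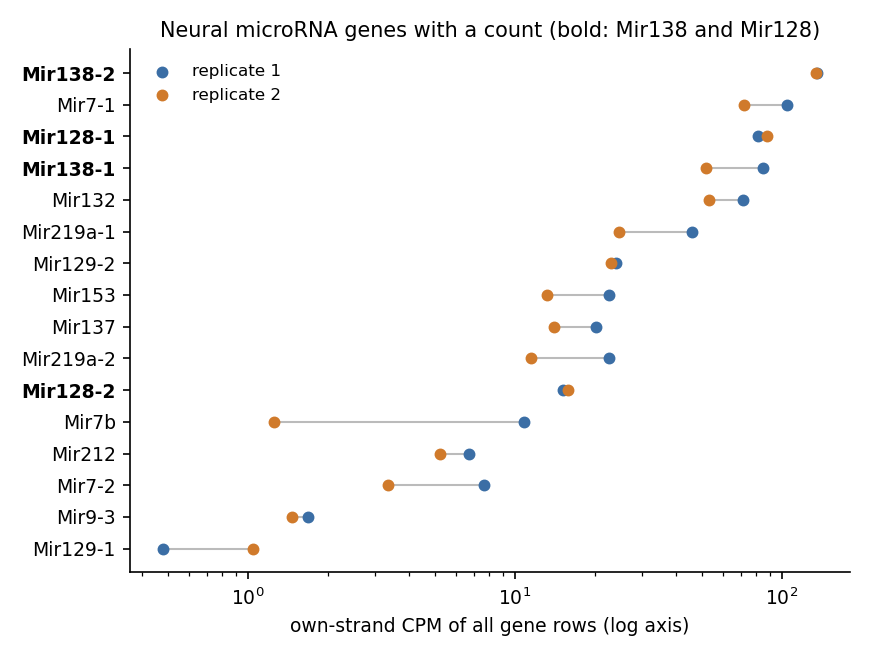
Own-strand CPM (log x axis) of the neural microRNA genes with at least 1 count, in replicate 1 (blue) and replicate 2 (orange), joined by a grey line. Mir138-2 has the highest level in the list, and Mir138-1 is at 85.0 and 51.8 CPM.

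The genes nearest in level were found by distance in log2(CPM + 1) over the 2 libraries, a likeness of level at 2 points only. For Mir138-1 they were Mir668 (85.3 and 51.4 CPM), Mir103-2 (80.9 and 49.3) and Mir218-2 (90.1 and 48.0). For Mir138-2 they were Mir152 (139 and 138), Mir30b (130 and 132) and Mir874 (146 and 143). For Mir128-1 they were Mir204 (77.3 and 79.6), Mir574 (80.9 and 78.1) and Mir187 (85.0 and 77.9). For Mir128-2 they were Mir3475 (15.4 and 14.0), Mir7655 (17.3 and 16.3) and Mir5113 (13.9 and 18.8). None of these nearest genes was the partner locus.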

How the data were processed

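Small RNA of 2 pools of embryonic day 10.5 mouse hearts was sequenced. The authors deposited read counts per gene, not normalized, counted from each library's alignment to mm10 with GENCODE M4, per the deposited README files. For the aligner and trimming, the sources used here give nothing. Each table holds counts over both strands, on the gene's own strand and on the opposite strand. The first equalled the sum of the others for all 1973 genes. Own-strand counts were used. Rows that name no gene stayed out of library sizes: 26.3% and 25.5% of reads were unmapped, 23.3% and 23.5% mapped to several places, and 8.98% and 7.41% lay outside genes.

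Symbols came from GENCODE M21 by stable identifier, for 1894 genes. Sequences came from RefSeq (GRCm38.p6), which held all 4 genes, and windows were searched on both strands of its hairpins. Levels are CPM of all own-strand gene counts. Intervals and tests used scipy 1.17.1, library scaling edgeR 4.0.16 (TMM) and, as an alternative, DESeq2 1.42.0. The edgeR quasi-likelihood test was not used, since the design has 1 group. Log2 ratios add a prior count of 0.5, and genes needed 10 counts in at least 1 library. A p-value here measures counting error between 2 libraries.

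Genes named are the 4 genes, the neural list with at least 10 counts in a library, the muscle list, the 3 nearest genes in level to each of the 4, and the 3 pairs with the most counts. Neural genes with fewer counts and the markers of other tissues were named after their values were seen. The genes and lists were chosen with earlier results of these data known.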

Additional observations from a re-analysis of the deposited data

Results flagged for a closer look

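Among the neural genes named, Mir219a-1 had reads on the strand opposite to the gene, which the comparisons do not use, with 4 counts in replicate 1 and 8 in replicate 2. Both are above the 3 counts that a count of 0 allows, and the labels name no control sample. Mir219a-2 had 3 and 2 such counts, which are within that limit.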

How the results depend on the processing

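Of 83 values recomputed under other settings, 71 kept their direction and their side of the threshold or moved by less than the spread between replicates. Part of these outcomes was fixed in advance. With 2 libraries, leaving 1 out cannot move a mean by more than that spread. Pair shares over both strands could not change, since none of the 4 genes had a count on the opposite strand. Scaled to all rows of the table instead of the gene rows, the mean levels were 28.9 for Mir138-1, 57.4 for Mir138-2, 36.1 for Mir128-1 and 6.59 for Mir128-2 (CPM), since the denominator then takes in unmapped reads, reads mapped to several places and reads outside genes. With counts over both strands Mir138-2 had 129 and Mir128-2 14.8 CPM. With total counts as the scaling the log2 ratio of Mir138-2 turned to -0.011 and that of Mir128-1 fell to 0.11 without passing, 66 genes of all tested were higher in place of 129, and 0 neural genes were higher and 9 lower. Leaving out either replicate gave 51.8 to 85.0 CPM for Mir138-1, 134.5 to 135.5 for Mir138-2, 81.4 to 88.1 for Mir128-1 and 15.1 to 15.9 for Mir128-2. Without 1 replicate the share of Mir138-2 in its pair was 61.4% to 72.2% and that of Mir128-1 84.3% to 84.7%. Per base of hairpin, a setting chosen after seeing the data, the mean share of Mir138-2 was 73.7%, against 66.8% on counts. That of Mir128-1 was 85.6%, against 84.5%. DESeq2 size factors were 1 in both libraries, so this setting compared unscaled counts, and it changed no call of the 4 genes. No paired analysis was possible because the labels give 1 group. Depth limits Mir128-2 most, on 63 and 76 counts.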
